A study of Mus musculus with 15 samples.

Results

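The genes described here encode subunits of the GABA-A receptor, and they were taken by name: Gabra2, Gabra3, Gabra5, Gabra6, Gabrb1, Gabrb2 and Gabrd, 7 of the 18 Gabr genes and of the 27803 genes in the count tables. All 7 were found in the tables. The data were unique molecular identifier (UMI) counts from Drop-seq, in which single cells are captured in droplets with barcoded beads, of 15 C57BL/6 mice. The 5 WT cerebella were taken untreated at postnatal day 7 (P7). The 10 medulloblastomas came from M-Smo mice (Math1-Cre:SmoM2/EYFPloxP/loxP), 5 given vehicle and 5 given vismodegib, a SMO inhibitor, at 75 mg/kg in 3 daily doses from P12 to P14, with collection at P15. Both tumor groups therefore carried the same alleles: Cre from a cloned Atoh1 (Math1) promoter, which acts in the lineage of the cerebellar granule neuron progenitors (CGNPs), and a Cre-activated, constitutively active SMO fused to YFP. Capture used a PDMS device for WT cells, but a glass device and a spike-in of human cells for tumors, so that genotype, age, device and spike-in cannot be told apart between WT and tumors.

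GABA-A receptors are pentameric chloride channels opened by GABA, and a typical receptor joins alpha and beta subunits with a gamma or a delta subunit. Alpha subunits shape the affinity for GABA and the response to benzodiazepines, beta subunits line the GABA site together with alpha, and the delta subunit takes the place of gamma in extrasynaptic receptors that carry tonic inhibition. In the cerebellum, granule neurons that have matured are known for receptors with alpha6 and delta, whereas alpha2 and alpha3 are better known from immature neurons.

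In the GENCODE M21 annotation of GRCm38, which has the coordinates of the mm10 genome, the members lie in clusters of Gabr genes, with the exception of Gabrd. Gabra2 spans chr5:70957597-71095849 on the minus strand, and Gabrb1 spans chr5:71658113-72149037 on the plus strand. Gabra6 (chr11:42306437-42321072, minus strand) and Gabrb2 (chr11:42419757-42629028, plus strand) are neighbors 98.7 kb apart that point away from each other. Gabra3 lies at chrX:72432681-72656848, Gabra5 at chr7:57407672-57510059 and Gabrd at chr4:155384980-155398112, all on the minus strand. Gabrb1 overlaps Gabra4 on the other strand, and Gabra3 overlaps Mir767 and Mir105 on its own strand, so that reads of these genes could only be kept apart by strand or by position. The strand setting of the counting was not stated.

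The promoters of 3 members are shown because their genes had the most distinct patterns below: Gabra6 and Gabrb2, the neighbors whose levels were highest in the neuron-like tumor cells, and Gabra2, which followed the differentiation of granule cells. Each run is the 250 bases before the annotated start in RefSeq (GRCm38.p6), read 5′ to 3′ on the strand of the gene, at chr11:42321073-42321322 for Gabra6, chr11:42420190-42420439 for the first of several Gabrb2 starts and chr5:71095850-71096099 for Gabra2. An entry was found for 6 of the 7 members, and none for Gabrd. Capitals mark an E-box (CANNTG, bound by bHLH factors such as ATOH1 and NEUROD1) and a half-site of the NFI family (TTGGC or its reverse GCCAA), searched on both strands.
Gabra6: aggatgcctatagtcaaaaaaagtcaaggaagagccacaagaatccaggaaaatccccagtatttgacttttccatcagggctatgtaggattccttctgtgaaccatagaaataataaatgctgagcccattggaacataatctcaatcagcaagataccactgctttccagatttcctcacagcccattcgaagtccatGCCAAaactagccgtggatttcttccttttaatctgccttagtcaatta
Gabrb2: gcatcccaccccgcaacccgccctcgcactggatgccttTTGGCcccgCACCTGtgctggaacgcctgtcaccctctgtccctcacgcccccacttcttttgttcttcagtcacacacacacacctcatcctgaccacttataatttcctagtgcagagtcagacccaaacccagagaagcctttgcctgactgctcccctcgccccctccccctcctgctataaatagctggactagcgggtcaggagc
Gabra2: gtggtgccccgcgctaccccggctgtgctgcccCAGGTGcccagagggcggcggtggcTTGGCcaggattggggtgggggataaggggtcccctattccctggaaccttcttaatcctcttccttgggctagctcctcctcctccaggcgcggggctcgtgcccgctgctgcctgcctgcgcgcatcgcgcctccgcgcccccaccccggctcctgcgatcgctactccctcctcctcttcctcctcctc
In these windows Gabra6 held 1 NFI half-site, whose first base stood at position -49 from the start, and no E-box. Gabrb2 held an E-box at -202 and a half-site at -211, and Gabra2 an E-box at -217 and a half-site at -192. The windows of the later Gabrb2 starts, not shown, held neither motif. Among all 32851 promoter windows of this length, 66.2% held an E-box and 41.5% an NFI half-site, so that these matches are common and describe letters, not sites in use.

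The tables held 2310474 to 5952919 UMIs per WT cerebellum, 4307404 to 17708677 per vehicle-treated tumor and 2601001 to 10922460 per vismodegib-treated tumor, and 37946 cells passed the quality criteria, with animal medians of 1082.5 to 2597 UMIs per cell. Cells were grouped without the members and without the genes of the GABA pathway described below, and the groups were named by markers. Dividing granule lineage cells were named Node A-like where markers of S to M phase led and Node B-like where those of G1 and early S phase did. Cells in differentiation were named Node C-like, and Node D-like at its late end. All 4 together are called CGNP-like and made up 87.3% of the 30722 tumor cells. A small tumor cluster of 318 cells, 86 from vehicle and 232 from vismodegib, was named neuron-like by its markers Snhg11 and Meg3, yet it was led by Cbln3, a marker of the Node D-like list, followed by Vsnl1, Snhg11, Eno2 and Syt4. Tumor cells here are all cells kept from the tumor samples. The paper places neurons, astrocytes and oligodendrocytes in the stroma inside or next to the tumors, though it found Yfp of the transgene in some glial cells. Whether the neuron-like cells came from tumor or from neighboring tissue was not tested. Node D-like tumor cells were 2 clusters, of which the first held 658 vehicle and 2199 vismodegib cells and the second 108 and 1915. The 10 tumors also fell into 2 sets in an earlier analysis of these data, with vehicle tumors 1 and 3 and vismodegib tumors 1, 2 and 3 in set 1, and both sets are given where they matter. Libraries shared at most 6 barcodes of kept cells in any of the 105 pairs of libraries. In sums over cells, fewer cells of a stage and less RNA per cell cannot be told apart, and with counts from transcript ends no level is compared between genes.

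In all kept cells the members were rare transcripts. Gabra2 was counted with 117, 366 and 1421 UMIs in the WT, vehicle and vismodegib cells, Gabra3 with 197, 370 and 404, and Gabrd with 21, 164 and 813. The corresponding counts were 10, 160 and 576 for Gabra6, 73, 88 and 260 for Gabrb1 and 36, 41 and 168 for Gabrb2. Gabra5 had 23, 21 and 7. UMIs of a member were summed per animal and class and are given as CPM, the usual scaling of a gene's counts to a common total of all UMIs in that sum. Each test below was edgeR's quasi-likelihood test on these sums, fitted on all genes, with the animal as replicate and a call at an adjusted p under 0.05. Values after a ± sign are the SD for levels and an approximate standard error for log2 fold changes.

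**Figure D1:**
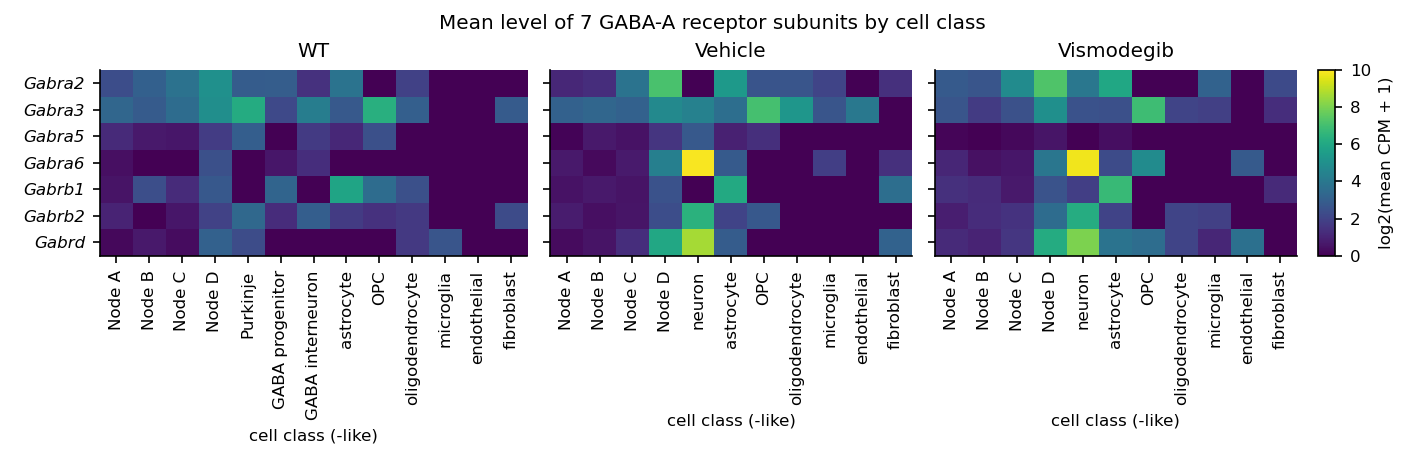
Levels of the 7 GABA-A receptor subunit genes (rows) in the marker-named classes (columns) of WT cerebella, vehicle-treated and vismodegib-treated tumors, as log2 of the mean CPM plus 1 over animals, for classes with at least 3 animals. Gabra2 stood out in Node D-like, Gabra6, Gabrb2 and Gabrd in neuron-like, Gabrb1 in astrocyte-like and Gabra3 in oligodendrocyte progenitor-like cells.

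Gabra2, which encodes the alpha2 subunit, was low in dividing granule cells and high in late differentiation. In Node D-like cells the 5 vehicle-treated tumors had 89.8, 114, 131, 248 and 108 CPM, a mean of 138 ± 63.2 CPM (SD, n = 5), and the 5 vismodegib-treated tumors had 223, 187, 106, 128 and 120.1 CPM, a mean of 153 ± 50.1 CPM (SD, n = 5). In WT cerebella the Node D-like level was 38.2, 37.9, 41.4, 27.2 and 13.1 CPM, with a mean of 31.5 ± 11.6 CPM (SD, n = 5). Every tumor of both groups thus lay above the highest WT cerebellum at this stage, whereas the ranges of vehicle and vismodegib overlapped. The share of all genes apart from WT in this way was not counted, and tumors were not tested against WT at this stage. Over differentiating cells, 35.3% of genes tested were called between vehicle and WT, so that a difference by itself is common. Earlier stages held little: the vehicle means were 1.15 CPM in Node A-like, 1.47 CPM in Node B-like and 12.8 CPM in Node C-like cells. The corresponding WT means were 4.12, 7.35 and 12.6 CPM.

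To test the stage change within each animal, Node C-like and Node D-like cells were summed as differentiating and Node A-like and Node B-like cells as proliferating, with the animal as a block. Gabra2 was higher in differentiating cells of vehicle-treated tumors (log2 fold change 4.46 ± 0.23, adjusted p = 1.73e-16) and of vismodegib-treated tumors (3.91 ± 0.14, adjusted p = 6.85e-14), in 5 of 5 animals of each group. In vehicle-treated tumors 64.2% of all genes tested were called between these stages, and in vismodegib-treated tumors 73.1%, so that a call by itself is common. In WT cerebella no member passed the filter on low counts, with 60.3% of the genes that passed it called. Without that filter, where 26.7%, 33.3% and 39.4% of genes were called in WT, vehicle and vismodegib, Gabra2 was higher in differentiating WT cells as well (2.06 ± 0.32, adjusted p = 1.40e-09). Under vehicle, with 12 UMIs in Node A-like and 19 in Node B-like cells, Gabra2 passed the filter only through its differentiating level, so that filtered call is no support. In both tumor groups Gabra2 was also called without the filter. Over the alternative settings that tested it, its adjusted p (edgeR or DESeq2) was at most 3.21e-06 under vehicle and 9.31e-09 under vismodegib. Except for the setting without the filter, these fits used the same filter, so that their range is no separate support.

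The stage change of Gabra2 was larger in vehicle-treated tumors than in WT cerebella. The difference of the changes was 2.36 ± 0.46, adjusted p = 0.000170 on the log2 scale, where 10.1% of genes were called, or 4.28% without the filter. Gabra2 passed the filter in this fit through its differentiating level, so that this filtered call is no support. The difference was also called without the filter. Proliferating cells of vehicle-treated tumors had less Gabra2 than those of WT, without overlap, while the levels in differentiating cells overlapped, as given below. Node D-like cells made up 37.4% of the differentiating cells in WT and 17.1% in vehicle-treated tumors on average. The part of either in the result was not tested. Between vismodegib and vehicle the difference was -0.52 ± 0.29, 95% interval -1.09 to 0.05, adjusted p = 0.212, which did not pass the threshold, with 24.4% of genes called and 10.4% without the filter.

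Gabra3, which encodes alpha3, had a flatter course along the granule lineage. In Node D-like cells it stood at 19.1, 37.9, 20.7, 43.5 and 26.3 CPM in the WT cerebella, 8.17, 10.3, 35.9, 44.0 and 28.6 CPM in vehicle-treated and 32.4, 19.0, 25.9, 42.6 and 34.6 CPM in vismodegib-treated tumors, and the 3 ranges overlapped. Proliferating cells had means of 8.48, 8.22 and 3.80 CPM in the same order. In WT cerebella, where Gabra3 did not pass the filter, its level was higher in differentiating than in proliferating cells in 5 of 5 animals. Gabra3 was higher in differentiating cells of vismodegib-treated tumors (2.27 ± 0.25, adjusted p = 1.92e-07), while in vehicle-treated tumors the change was 0.37 ± 0.23, 95% interval -0.08 to 0.81, adjusted p = 0.159. Under vismodegib, Node A-like cells held 35 and Node B-like cells 11 Gabra3 UMIs. The filter was passed there through the differentiating level, so that the filtered call under vismodegib is no support. That change was also called without the filter. Without vehicle-treated tumor 1 the vehicle change was called (0.52, adjusted p = 0.0424). The difference between the treatments was itself called (1.93 ± 0.35, adjusted p = 0.000159). It went with Node D-like shares of 54.6% of differentiating cells under vismodegib and 17.1% under vehicle, and with a lower mean in proliferating cells under vismodegib. With a finer clustering the difference was 1.02 ± 0.43 (adjusted p = 0.166), which did not pass the threshold, and the part of the stage shares in it was not tested. Between vehicle and WT the difference for Gabra3 was -0.54 ± 0.39, adjusted p = 0.451.

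Gabrd, which encodes the delta subunit of extrasynaptic receptors, was close to absent before Node D. In Node D-like cells the vehicle-treated tumors had 65.3, 51.7, 47.8, 40.8 and 108 CPM and the vismodegib-treated tumors 68.0, 61.7, 51.7, 83.7 and 84.6 CPM, against 2.73, 18.9, 0, 16.3 and 0 CPM in WT cerebella. The lowest tumor of either group was above the highest WT cerebellum, and the WT values rested on 12 UMIs in 968 cells. As for Gabra2, the share of all genes apart in this way was not counted. Node C-like cells had means of 0.272, 1.47 and 1.97 CPM in WT, vehicle and vismodegib. The stage change of Gabrd was 4.75 ± 0.38, adjusted p = 6.53e-12 in vehicle-treated and 4.75 ± 0.25, adjusted p = 8.96e-12 in vismodegib-treated tumors, and both were called. Node A-like and Node B-like cells held 4 and 5 Gabrd UMIs under vehicle and 12 and 5 under vismodegib. Gabrd thus passed the filter only through its differentiating level, and the filtered calls are no support. Both were also called without the filter. Over the alternative settings that tested it, its adjusted p (edgeR or DESeq2) was at most 2.03e-06 under vehicle and 1.95e-06 under vismodegib. As for Gabra2, all but the unfiltered setting used the same filter, and the range is no separate support. The difference of the stage changes between the treatments was 0.06 ± 0.60, 95% interval -1.12 to 1.25, adjusted p = 0.963. Between vehicle and WT the difference was 1.79 ± 1.43, adjusted p = 0.517, a wide error with 2 UMIs in proliferating and 13 in differentiating WT cells.

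**Figure D2:**
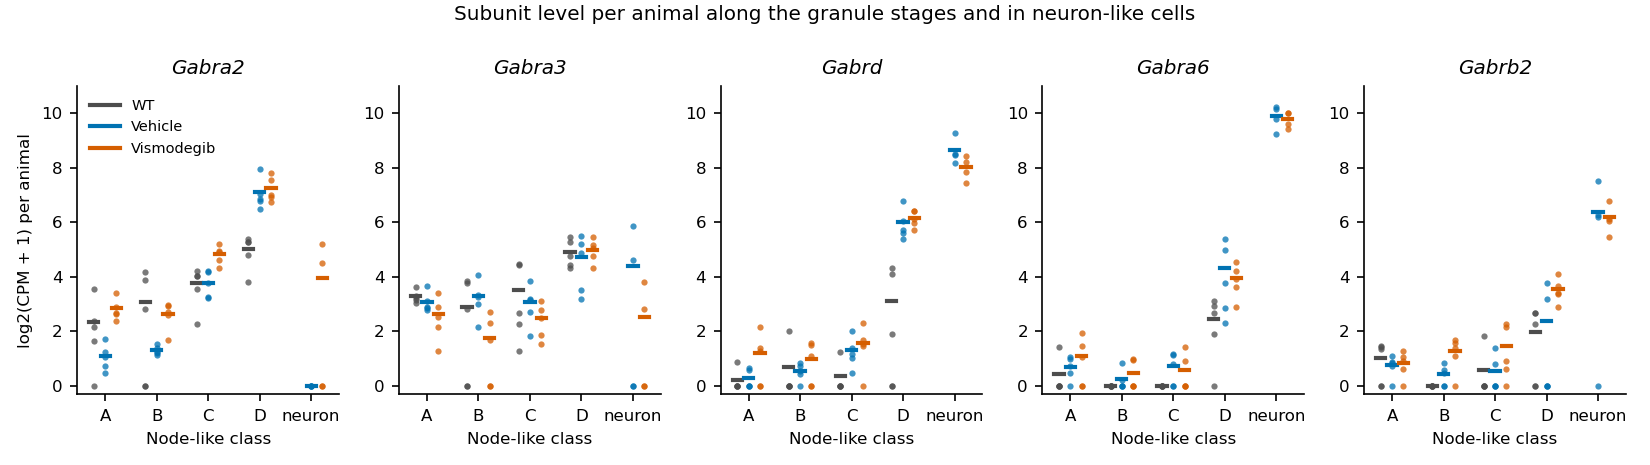
Level of Gabra2, Gabra3, Gabrd, Gabra6 and Gabrb2 as log2(CPM + 1) per animal (points) in Node A-like to Node D-like and neuron-like cells of WT, vehicle and vismodegib animals, with the mean as a bar. Gabra2 and Gabrd points of both tumor groups lay above WT in Node D-like cells, and Gabra6 points stood near 0 until Node D-like and highest in neuron-like cells.

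Gabra6, which encodes the alpha6 subunit of cerebellar granule neurons, was concentrated in the neuron-like cells of the tumor samples, whose origin was not tested. Neuron-like cells were 1.04% of the cells kept from these samples. They held 536 of the 736 Gabra6 UMIs of the tumor samples (72.8%), with another 19.97% in Node D-like cells. The 4 vehicle-treated tumors that held 10 or more of them had 605, 1143, 887 and 1215 CPM and the 4 vismodegib-treated tumors 1026, 685, 1024 and 780.4 CPM, ranges that overlapped; tumor 3 of each group had too few cells. Node D-like cells had 40.8, 31.0, 3.98, 6.28 and 12.7 CPM in vehicle-treated and 6.47, 17.4, 14.1, 22.6 and 11.2 CPM in vismodegib-treated tumors, so that the lowest neuron-like value was above every Node D-like value. WT cerebella, which gave no neuron-like class, had a Node D-like mean of 4.46 ± 3.08 CPM (SD, n = 5), from 6 UMIs. Along the stages Gabra6 passed the filter in no group alone. Without the filter it was higher in differentiating cells of vehicle-treated (2.56 ± 0.66, adjusted p = 0.000421) and vismodegib-treated tumors (3.23 ± 0.40, adjusted p = 3.34e-15), and the difference of these changes, for which it passed the filter, was 0.63 ± 0.92, adjusted p = 0.667.

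Neuron-like cells also had the highest Gabrd and Gabrb2 levels. Gabrd stood at 363, 286, 355 and 619 CPM in vehicle-treated and 342, 171, 231 and 296 CPM in vismodegib-treated tumors, above every Node D-like value. Gabrb2, which encodes the beta2 subunit found with alpha6 in granule neurons, stood at 182, 0, 76.1 and 71.5 CPM and 68.4, 42.8, 65.4 and 109 CPM, with 1 vehicle-treated tumor at 0. Its Node D-like means were 4.15 ± 5.89 CPM (SD, n = 5) under vehicle and 10.7 ± 3.57 CPM (SD, n = 5) under vismodegib. Gabra2, by contrast, had no UMI under vehicle in 86 neuron-like cells, which allows a share of cells with a UMI of up to 3.49%, and stood at 0, 0, 21.8 and 36.3 CPM under vismodegib. No test was run between Node D-like and neuron-like cells.

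Against all CGNP-like cells of the same tumors, with the tumor as a block and no filter, Gabra6 (7.75 ± 0.27, adjusted p = 1.91e-173), Gabrd (4.33 ± 0.29, adjusted p = 7.18e-49) and Gabrb2 (4.30 ± 0.41, adjusted p = 1.23e-23) were higher in neuron-like cells and Gabra2 was lower (-1.35 ± 0.47, adjusted p = 0.0224), with 21.0% of genes called. With the filter, which only Gabra6 and Gabrd passed, and through their neuron-like levels, 50.2% of genes were called, and the calls of these 2 members are then no support. In filtered fits with 1 tumor left out, the adjusted p of Gabra6 (edgeR) ran from 1.11e-31 to 8.76e-24. The size of the unfiltered p-values is therefore not read.

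Single cells were also counted by the members they held. Of the 86 neuron-like vehicle cells, 55 had a Gabra6 UMI, 32 a Gabrd UMI and 23 both, and of the 232 vismodegib cells 171, 84 and 62. Of these 232, 10 had a Gabra2 UMI, 6 of them beside a Gabra6 UMI. Of 4114 Node D-like vismodegib cells, 831 had Gabra2, 510 Gabrd, 103 both and 99 Gabra6, with 13 holding Gabra2 and Gabra6. Whether Gabra2 and Gabra6 kept apart within a class was not tested. At these depths a cell without a UMI is not shown to lack the transcript. The mean share over animals of neuron-like cells with Gabra6 was 63.7% under vehicle and 64.3% under vismodegib, and 35.9% and 34.0% after thinning to 500 UMIs a cell. As background, 1 of 200 vehicle and 0 of 327 vismodegib microglia-like cells had a Gabra6 UMI, at median depths of 2136 and 2306 UMIs against 1159.5 and 1788 in neuron-like cells. For Gabra2 the share in Node D-like cells was 17.6% under vehicle and 19.4% under vismodegib, against 1 of 200 and 7 of 327 microglia-like cells.

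**Figure D3:**
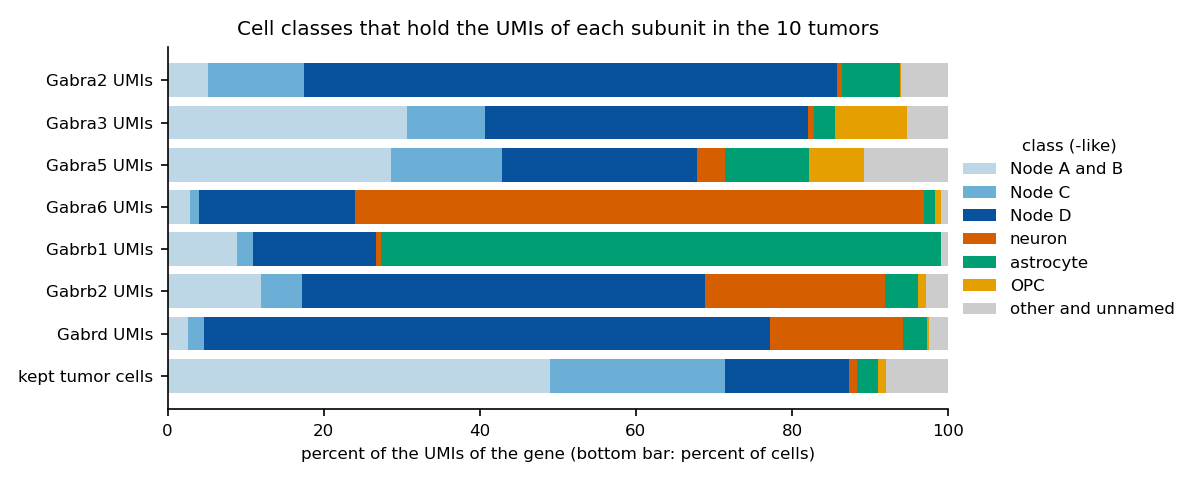
Share of the UMIs of each member in all tumor cells (percent, stacked bars) that fell in each class, with the share of cells in the bottom bar. Neuron-like cells were 1.04% of cells and held 72.8% of Gabra6 UMIs, and astrocyte-like cells were 2.62% of cells and held 71.8% of Gabrb1 UMIs.

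Gabrb1, which encodes beta1, was highest in astrocyte-like cells, which had 75.9, 46.6, 102, 47.6 and 11.8 CPM in the WT cerebella, 37.7, 86.3, 76.6, 43.6 and 91.3 CPM in vehicle-treated and 115, 111, 82.0, 117 and 100.2 CPM in vismodegib-treated tumors. All 15 animals had Gabrb1 in this class, and the ranges of the 3 groups overlapped. CGNP-like cells had means of 1.70, 0.749 and 2.48 CPM. Without the filter, which removed Gabrb1, the astrocyte-like level was higher than that of CGNP-like cells in WT (4.76 ± 0.43, adjusted p = 2.81e-26) and in tumors (5.57 ± 0.28, adjusted p = 1.68e-87), where 21.1% and 28.7% of genes were called.

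Gabra2 was also found in tumor astrocyte-like cells, with 18.8, 0, 123, 43.6 and 22.8 CPM under vehicle and 49.4, 71.0, 61.5, 57.7 and 64.9 CPM under vismodegib. The vehicle values spread from 0 upward, and the vismodegib values lay close together. Against CGNP-like cells, over both tumor groups together, the unfiltered difference was 0.64 ± 0.25, adjusted p = 0.0386, and it was called, as were 28.7% of genes. Astrocyte-like cells were higher in 8 and lower in 2 of 10 tumors, and higher in 2 and lower in 3 of 5 WT animals. The CGNP-like level itself differed between the treatments, as given below. In WT the astrocyte-like mean was 12.9 ± 13.1 CPM (SD, n = 5), from 9 UMIs.

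Gabra3 was high in the oligodendrocyte progenitor-like cells. Their levels were 67.5, 22.7, 123, 111 and 66.3 CPM in WT cerebella, 91.2, 144, 124, 216 and 74.8 CPM in vehicle-treated tumors and 192, 64.8 and 99.1 CPM in the 3 vismodegib-treated tumors with at least 10 such cells. These ranges overlapped, and in each group the mean was above that of any granule stage. Without the filter Gabra3 was higher than in CGNP-like cells in WT (2.05 ± 0.43, adjusted p = 4.96e-05) and in tumors (2.83 ± 0.29, adjusted p = 2.53e-20), with 10.7% and 19.5% of genes called. Purkinje-like WT cells had 52.3, 118 and 43.2 CPM in 3 animals and were also higher (2.20 ± 0.42, adjusted p = 2.85e-06), with 18.9% of genes called. Gabrb2 was called there too (3.104 ± 0.95, adjusted p = 0.00814), but its 7 UMIs came from 1 animal. The WT unipolar brush cell-like cells, with at least 10 cells in 2 animals only, had Gabra3 at 45.2 and 95.6 CPM from 3 UMIs and were not tested.

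**Figure D4:**
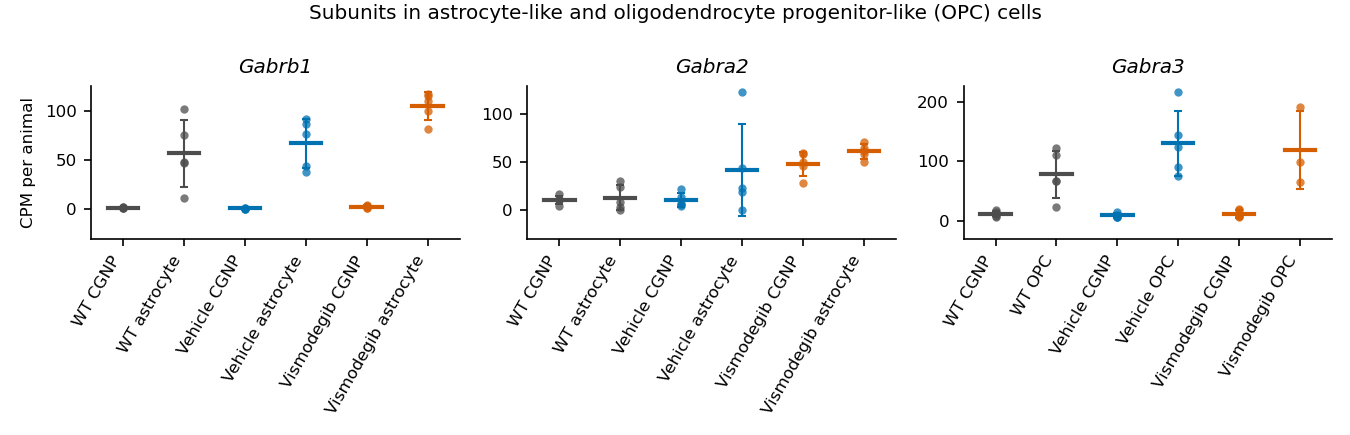
CPM per animal (points) with mean and SD for Gabrb1 and Gabra2 in astrocyte-like against CGNP-like cells, and for Gabra3 in oligodendrocyte progenitor-like against CGNP-like cells, in WT, vehicle and vismodegib. All astrocyte-like values of Gabrb1 lay above all CGNP-like values, whereas 1 vehicle and 1 WT astrocyte-like value of Gabra2 stood at 0.

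Other classes mostly held little of the members. In the tumors Gabrd had 2 UMIs in microglia-like, 1 in oligodendrocyte-like and 1 in vascular fibroblast-like cells. The filter kept Gabrd through its neuron-like level, and its calls in these 3 classes were lost under other settings, so no direction is given for them. With the filter, the genes called came to 71.2%, 57.0% and 61.3% in these classes, 63.7% in astrocyte-like, 55.2% in endothelial-like and 46.8% in oligodendrocyte progenitor-like cells. Without the filter Gabra2 was lower in microglia-like (-2.38 ± 0.47, adjusted p = 2.34e-06), oligodendrocyte-like (-3.49 ± 0.71, adjusted p = 1.17e-05), oligodendrocyte progenitor-like (-2.47 ± 0.65, adjusted p = 0.00138) and vascular fibroblast-like cells (-2.42 ± 0.60, adjusted p = 0.000399). It was called lower in endothelial-like cells as well, where 117 cells held no Gabra2 UMI and no fold is given. Gabra3 was lower in microglia-like (-2.72 ± 0.69, adjusted p = 0.000371) and vascular fibroblast-like cells (-2.82 ± 0.92, adjusted p = 0.0104). Called genes without the filter were 33.1% in microglia-like, 22.6% in oligodendrocyte-like, 26.5% in vascular fibroblast-like and 23.4% in endothelial-like tumor cells.

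In WT cerebella Gabra2 was lower in GABAergic interneuron-like cells (-2.12 ± 0.73, adjusted p = 0.0386), which had a mean of 1.68 ± 2.39 CPM (SD, n = 5), with 10.5% of genes called. It was called lower in the oligodendrocyte progenitor-like and vascular fibroblast-like cells, whose sums held no Gabra2 UMI. No member was called in the other WT classes, where 6.34% of genes were called in GABAergic progenitor-like, 17.8% in microglia-like, 15.5% in oligodendrocyte-like and 14.8% in endothelial-like cells, beside 18.5% in the vascular fibroblast-like cells. GABAergic interneuron-like cells, which release GABA themselves, had a Gabra3 mean of 17.8 ± 13.03 CPM (SD, n = 5).

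Over classes with at least 3 animals, some neighbors in the order by mean level were apart and others overlapped. For Gabra2 under vehicle, Node D-like cells (89.8 to 248 CPM) did not overlap with the unnamed cells (26.8 to 69.7 CPM), the next in order. Under vismodegib the same pair overlapped (106 to 223 and 34.1 to 153 CPM), and astrocyte-like cells (49.4 to 71.0 CPM) were clear of Node C-like cells (19.1 to 36.3 CPM). In WT, Node D-like (13.1 to 41.4 CPM) and astrocyte-like cells (0 to 29.7 CPM) overlapped. For Gabra3 under vismodegib, oligodendrocyte progenitor-like cells (64.8 to 192 CPM) were clear of Node D-like cells (19.0 to 42.6 CPM), the next in order. Under vehicle they (74.8 to 216 CPM) overlapped with oligodendrocyte-like cells (0 to 108 CPM), and in WT (22.7 to 123 CPM) with Purkinje-like cells (43.2 to 118 CPM). For Gabrd, neuron-like cells were clear of Node D-like cells in both tumor groups, and Node D-like cells were clear of the class after them, unnamed under vehicle (0 to 27.4 CPM) and astrocyte-like under vismodegib (8.24 to 19.8 CPM). Neighbors further down overlapped for these 3 genes. Gabrb2 in neuron-like cells was clear of Node D-like cells under vismodegib (42.8 to 109 and 6.47 to 16.1 CPM) but not under vehicle. Gabra6 in neuron-like cells was clear of the next class in both groups, Node D-like under vehicle and oligodendrocyte progenitor-like under vismodegib (0 to 80.9 CPM, 5 UMIs in 1 tumor). Gabrb1 in astrocyte-like cells was clear of Node D-like cells, the next class, under vismodegib. Under vehicle its range overlapped with that of vascular fibroblast-like cells (0 to 44.5 CPM, 1 UMI), and in WT with that of oligodendrocyte progenitor-like cells (0 to 30.6 CPM, 2 UMIs).

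Gabra5, which encodes alpha5, was near the limit of detection in every class. No class mean was above the 6.90 CPM of WT Purkinje-like cells, which rested on 4 UMIs. CGNP-like means were 1.16 CPM in WT, 0.411 CPM in vehicle and 0.190 CPM in vismodegib, and no difference of Gabra5 was detectable at this depth.

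Vismodegib was then compared with vehicle, first over CGNP-like cells and then within each stage. Over CGNP-like cells Gabra2 was higher after vismodegib, at 45.5, 49.6, 27.9, 58.0 and 59.4 CPM against 6.62, 5.80, 13.7, 22.0 and 4.52 CPM under vehicle, and all 5 treated tumors lay above all 5 controls. The log2 fold change was 2.23 ± 0.40, adjusted p = 0.00252, a 4.71-fold difference. Gabrd was higher as well, at 11.5, 12.1, 11.4, 34.1 and 38.7 CPM against 2.55, 2.18, 3.55, 3.53 and 2.66 CPM, again without overlap (2.97 ± 0.41, adjusted p = 0.000523, 7.84-fold). Gabra3 stood at 7.50, 7.57, 6.63, 19.98 and 18.3 CPM against 7.13, 6.24, 14.9, 9.97 and 6.71 CPM, and its difference of 0.51 ± 0.37, 95% interval -0.22 to 1.24, adjusted p = 0.437 was not called. These were the 3 members that passed the filter, and 12.9% of all genes tested were called. Without the filter, with 6.92% called, Gabra6 (2.25 ± 0.50, adjusted p = 0.00385), Gabrb1 (1.75 ± 0.53, adjusted p = 0.0422) and Gabrb2 (2.56 ± 0.52, adjusted p = 0.00156) were higher too.

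The share of Node D-like cells among CGNP-like cells, whose part in these changes was not tested, was 20.8, 24.0, 26.3, 49.4 and 55.3% in vismodegib-treated tumors 1 to 5 and 4.07, 3.83, 9.11, 10.2 and 3.12% in vehicle-treated tumors 1 to 5. The groups did not overlap in this share. Vismodegib-treated tumors 4 and 5 had the highest shares and the highest Gabra2 and Gabrd levels, while among tumors 1 to 3 tumor 3 had the highest share and the lowest Gabra2 level. Within set 1 the Gabrd mean was 11.7 CPM in 3 vismodegib-treated and 3.05 CPM in 2 vehicle-treated tumors, and within set 2 it was 36.4 CPM in 2 and 2.79 CPM in 3. For Gabra2 the means were 41.0 against 10.1 CPM in set 1 and 58.7 against 10.8 CPM in set 2. Since all 5 treated tumors lay above all 5 controls for both genes, the same order within each set follows from that and adds no support. With the set as a term in the fit the changes were 2.31 ± 0.38 (adjusted p = 0.000758) for Gabra2 and 3.06 ± 0.31 (adjusted p = 3.41e-05) for Gabrd. Gabra3 had opposite directions in the sets, with 7.23 against 11.04 CPM in set 1 and 19.1 against 7.64 CPM in set 2.

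Within Node D-like cells, summed over both clusters described above, neither subunit was called between the treatments. Gabra2 differed by 0.06 ± 0.26, 95% interval -0.46 to 0.58, adjusted p = 1.000, and Gabrd by 0.20 ± 0.27, 95% interval -0.32 to 0.72, adjusted p = 0.988. Gabra3 differed by 0.22 ± 0.36, 95% interval -0.48 to 0.91, adjusted p = 0.992. In these cells 0.0497% of genes were called, 3 of 6040, with 351 at an unadjusted p under 0.05. Without the filter 0.234% were called and none of the members, although Gabrb2 stood at 6.47, 9.498, 9.40, 16.1 and 11.8 CPM under vismodegib and 8.17, 0, 0, 12.6 and 0 CPM under vehicle (1.58 ± 0.70, adjusted p = 0.716).

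At the stages before Node D, Gabra2 was low in both groups but did not overlap between them. Node C-like cells had 29.6, 36.3, 19.1, 28.8 and 23.7 CPM under vismodegib and 12.8, 8.50, 17.6, 17.0 and 8.25 CPM under vehicle. The change of 1.17 ± 0.29, adjusted p = 0.0518 just missed the threshold, with 1.63% of genes called, and it passed without the filter (1.16 ± 0.31, adjusted p = 0.0200), where 1.8% were called. It also passed with the tumor set as a term, at 1.15 ± 0.27 (adjusted p = 0.0184), and with the replicate number as a block, at 1.17 ± 0.29 (adjusted p = 0.0446). Over all alternative settings its adjusted p (edgeR or DESeq2) ran from 0.0147 to 0.468, and with 1 animal left out it reached 0.166. The sets came from earlier results of these data and the replicate numbers did not pair the animals, so neither term is separate support. Within the sets the means were 28.3 CPM under vismodegib against 15.2 CPM under vehicle in set 1 and 26.2 against 11.3 CPM in set 2. Node A-like cells had 5.23, 9.64, 4.21, 6.47 and 5.37 CPM under vismodegib and 1.08, 0.401, 1.36, 2.28 and 0.651 CPM under vehicle, a change called without the filter (2.51 ± 0.60, adjusted p = 0.00779), with 1.75% of genes called. Node B-like cells had 6.56, 6.78, 2.23, 5.00 and 5.51 against 1.91, 1.17, 1.59, 1.32 and 1.35 CPM, and that change was not called (1.82 ± 0.62, adjusted p = 0.124). Microglia-like cells, taken as background, had Gabra2 at 7.91 ± 6.23 CPM (SD, n = 5) under vismodegib, from 7 UMIs, and 3.19 ± 6.38 CPM (SD, n = 4) under vehicle, from 1 UMI. Under vismodegib, vascular fibroblast-like cells held 3 Gabra2 UMIs, and oligodendrocyte progenitor-like, oligodendrocyte-like, endothelial-like and pericyte-like cells held 0. With so few UMIs the Node A-like and Node B-like levels are not shown to be above background. Gabra3 in Node A-like cells, the only member to pass the filter there, differed by -0.46 ± 0.38, adjusted p = 0.743, and in Node B-like cells, where no member passed, by -1.66 ± 0.58, adjusted p = 0.136 without the filter. Of all genes, 2.17% were called in Node A-like and 3.22% in Node B-like cells with the filter, and 2.29% in Node B-like cells without it. The filtered tests called 0 members in Node A-like, Node C-like and Node D-like cells by edgeR, whereas DESeq2 called Gabra2 in Node C-like cells.

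Over all kept tumor cells, neuron-like and glial classes included, Gabra2 (2.00 ± 0.37, adjusted p = 0.00393), Gabra6 (1.91 ± 0.45, adjusted p = 0.0130), Gabrb1 (1.91 ± 0.33, adjusted p = 0.00287) and Gabrd (2.35 ± 0.40, adjusted p = 0.00245) were higher after vismodegib. Gabra6 stood at 6.99, 7.48, 12.7, 31.8 and 18.7 CPM against 4.13, 4.03, 1.67, 6.89 and 4.06 CPM and Gabrb1 at 6.58, 4.54, 6.12, 10.5 and 11.2 CPM against 1.84, 1.74, 1.43, 2.05 and 2.99 CPM, and neither pair of groups overlapped. Gabra3 differed by 0.13 ± 0.32, adjusted p = 0.840. Called genes made up 13.9%, or 7.34% without the filter, where Gabrb2 was called too (2.13 ± 0.45, adjusted p = 0.00429). Beside these values, whose dependence on cell type shares was not tested, neuron-like cells were 1.53 ± 1.02% of cells after vismodegib and 0.510 ± 0.316% under vehicle, and astrocyte-like cells 3.83 ± 2.35% and 1.45 ± 0.666% (SD, n = 5 each), and both pairs of ranges overlapped. Within neuron-like cells the Gabra6 means were 879 ± 173 CPM (SD, n = 4) and 963 ± 277 CPM (SD, n = 4), and within astrocyte-like cells the Gabrb1 means were 105 ± 14.4 CPM (SD, n = 5) and 67.1 ± 24.8 CPM (SD, n = 5), comparisons that were not tested.

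**Figure D5:**
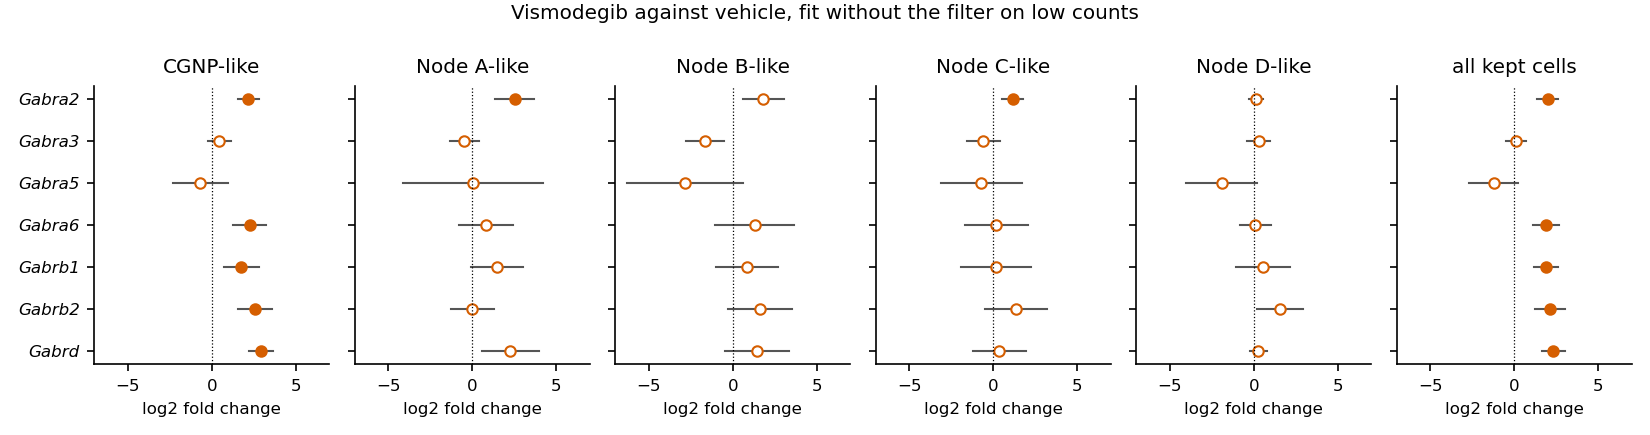
Log2 fold change of vismodegib over vehicle with its 95% interval for the 7 members in CGNP-like, Node A-like to Node D-like and all kept tumor cells, from the fit without the filter on low counts. Filled points were called at an adjusted p under 0.05, as Gabra2 and Gabrd were over CGNP-like cells, and in Node D-like cells no point was filled.

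Vehicle-treated tumors were compared with WT cerebella within the proliferating and the differentiating cells. Gabra3 did not pass the threshold in either (-0.17 ± 0.34, adjusted p = 0.725 in proliferating and -0.79 ± 0.42, adjusted p = 0.154 in differentiating cells), and Gabra2 differed by 0.61 ± 0.38, adjusted p = 0.217 in differentiating cells. With 41.7% of genes called in proliferating and 35.3% in differentiating cells, none of the tested members was called. Without the filter, where 28.9% and 23.6% were called, Gabra2 was lower in proliferating tumor cells (-1.80 ± 0.57, adjusted p = 0.0101), at 1.65, 0.792, 1.47, 1.84 and 0.995 CPM against 3.31, 8.47, 5.93, 4.61 and 2.83 CPM in WT. In differentiating tumor cells Gabra2 (0.73 ± 0.29, adjusted p = 0.0461) and Gabrd (1.48 ± 0.53, adjusted p = 0.0258) were higher. Gabrd there stood at 9.94, 8.15, 10.7, 9.67 and 11.7 CPM in tumors and 0.929, 7.65, 0, 6.35 and 0 CPM in WT, without overlap.

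The other genes of the pathway were followed by lists. Of the 11 other GABA-A subunit genes in the tables, 3 passed the filter over CGNP-like cells and 2 were higher after vismodegib, where 12.9% of all genes were called. The median log2 change of the 3 was 0.71, beside 0.005 over all genes tested. Along differentiation 2 of 2 tested were higher in WT, 2 of 3 were higher and 1 lower in vehicle, and 2 of 3 were higher and 0 lower in vismodegib. Of all genes tested, 60.3%, 64.2% and 73.1% were called in these comparisons. The gene that fell in vehicle-treated tumors was Gabra4, which encodes the alpha4 subunit (-0.83 ± 0.26, adjusted p = 0.00594).

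Of 9 genes for GABA synthesis, transport and breakdown, 5 passed the filter over CGNP-like cells: Abat, the transaminase that breaks down GABA, was higher after vismodegib (1.199 ± 0.27, adjusted p = 0.00941), and the transporter Slc6a11 lower (-2.32 ± 0.39, adjusted p = 0.00149). Along differentiation Abat was the 1 gene of the list tested in WT and rose (1.18 ± 0.21, adjusted p = 1.69e-06). In vehicle-treated tumors 1 of 4 was higher, Abat (1.40 ± 0.17, adjusted p = 3.08e-08), and 2 were lower, of which Slc6a11 fell most (-1.40 ± 0.27, adjusted p = 4.81e-05). Under vismodegib Abat rose (2.21 ± 0.15, adjusted p = 3.49e-10) and Aldh5a1, which acts after Abat in GABA breakdown, fell (-0.93 ± 0.22, adjusted p = 0.000893), the 2 tested. Of all genes tested, 60.3% were called along differentiation in WT, 64.2% in vehicle and 73.1% in vismodegib, which also stand beside the counts of chloride genes. Among 4 chloride transport genes tested, Slc12a5, the KCC2 exporter that sets the low chloride of mature neurons, was higher over CGNP-like cells after vismodegib (3.70 ± 0.44, adjusted p = 0.000212) and in differentiating cells under vismodegib (2.69 ± 0.41, adjusted p = 1.22e-05). These fits may have kept Slc12a5 only through the sums where it was high. No value without the filter is given for it, so that both calls are no support. Along differentiation 1 of 3 chloride genes tested was higher and 1 lower in WT, 1 and 2 of 3 in vehicle, and 2 and 1 of 4 in vismodegib. The kinase Wnk1 fell in all 3 groups (-0.32 ± 0.13, adjusted p = 0.0331 in WT, -0.33 ± 0.07, adjusted p = 0.000154 in vehicle and -0.48 ± 0.08, adjusted p = 4.78e-05 in vismodegib), and the chloride channel Clcn2 rose most in WT (0.60 ± 0.25, adjusted p = 0.0341) and vehicle (1.02 ± 0.10, adjusted p = 7.00e-10). The importer Slc12a2 was not called over CGNP-like cells (0.48 ± 0.24, adjusted p = 0.224).

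The GABA-B receptor, a G protein-coupled receptor, was followed by 4 genes, of which 3 passed the filter over CGNP-like cells and 2 were higher after vismodegib (12.9% of all genes called), led by Gabbr2 (2.34 ± 0.20, adjusted p = 3.10e-05). Gabbr2 was also the only gene of all lists called within Node C-like cells (1.56 ± 0.25, adjusted p = 0.00375), and none was called within Node A-like, Node B-like or Node D-like cells. Along differentiation Gabbr2 rose in WT (1.65 ± 0.22, adjusted p = 2.96e-09), vehicle (4.26 ± 0.26, adjusted p = 1.24e-14) and vismodegib (3.39 ± 0.17, adjusted p = 3.65e-12), and its change was larger in vehicle-treated tumors than in WT (2.57 ± 0.38, adjusted p = 1.25e-06). In proliferating cells Gabbr2 was lower in vehicle than in WT (-3.30 ± 0.48, adjusted p = 4.67e-05). Of the 3 genes tested, 2 were higher and 0 lower along differentiation in WT, 2 and 1 in vehicle, and 3 and 0 in vismodegib, with 60.3%, 64.2% and 73.1% of all genes called. Between vehicle and WT, 1 was higher and 1 lower in the difference of stage changes (10.1% of genes called), and 1 and 2 in proliferating cells (41.7%).

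Of 14 genes for anchoring, assembly and traffic of GABA-A receptors, 12 passed the filter along the stages, and 7 were higher and 1 lower in differentiating WT cells, 8 and 1 in vehicle and 8 and 2 in vismodegib. Of all genes tested 60.3%, 64.2% and 73.1% were called in these comparisons, near the shares of the list. The medians of the 12 were 0.45, 0.43 and 0.55, beside -0.006, -0.004 and 0.022 over all genes tested. Nlgn2, an adhesion protein of inhibitory synapses, rose most in WT (1.27 ± 0.16, adjusted p = 6.80e-10) and vismodegib (1.67 ± 0.14, adjusted p = 7.11e-09), and Plcl1 in vehicle (1.33 ± 0.26, adjusted p = 7.33e-05). Dbi, the diazepam binding inhibitor, fell in WT (-0.72 ± 0.06, adjusted p = 9.11e-16), vehicle (-1.36 ± 0.06, adjusted p = 3.20e-18) and vismodegib (-1.47 ± 0.08, adjusted p = 2.67e-11), and over CGNP-like cells it was the only gene of the 12 tested that was called after vismodegib (-0.67 ± 0.13, adjusted p = 0.00400).

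The genes with patterns most like each member were sought among 14120 genes over 35 class means, all named classes of the 3 groups with at least 10 cells in at least 3 animals, by Pearson's r of log2(CPM + 10). The class means share libraries and depth, so r is a description. For Gabra2 the closest genes included Cnfn (r = 0.82) and Gm12022 (0.82), both highest in vehicle Node D-like cells. For Gabra6 they were Cbln3 (0.98), Kcnk3 (0.96) and Agbl2 (0.95), and for Gabrd Bcl2l15 (0.95), Grm4 (0.95) and Mybpc3 (0.92). Gabrb2 was closest to Slc16a11 (0.95), Grin2c (0.94) and Kcnj9 (0.93). All 9 of these genes were highest in neuron-like cells of one tumor group. Gabra3 was closest to Chd5 (0.87), Sorcs3 (0.87) and Resp18 (0.86), highest in vehicle oligodendrocyte progenitor-like cells, and Gabrb1 to Cyp4f14, Aldh1l1 and Mlc1 (0.93 each), highest in astrocyte-like cells. Gabra5 had under 100 UMIs and was not compared.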

How the data were processed

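UMI counts of 15 Drop-seq libraries, 5 animals per group, were analysed. The authors aligned reads with STAR within the Drop-seq Tools pipeline to mm10, in tumors after setting apart barcodes of spiked-in human cells and with the transgenes added to the genome, and deposited the raw UMI counts of each barcode. Barcodes with under 500 UMIs or under 500 genes were dropped, as were those over 5 SD beyond their library's median in UMIs, genes or mitochondrial percent. WT cells (1505 variable genes, 12 principal components, 14 clusters) and tumor cells (1028, 7 and 15) were grouped with Louvain communities (igraph 0.11.9, resolution 0.8), leaving out all Gabr genes, the pathway lists and hemoglobin genes, the last chosen after the clusters were seen. Clusters that mixed types were divided again, and all were named from marker lists. Scrublet called 151 of 37946 cells doublets (0.398%, from 0.0740% to 2.39% per library), a share taken as too low to rely on, so that no cell was removed and doublets may remain.

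Counts were summed per animal and class (at least 10 cells, at least 3 animals per group) and tested with edgeR 4.0.16 in R 4.3.3 (TMM, filterByExpr, quasi-likelihood, Benjamini-Hochberg over all genes tested). Standard errors are the change over the root of F, and intervals 1.96 of these. The filter removed most members, whose values then come from a fit without it. The script was tested on simulated data. P-values rest on the spread between animals, moderated over all genes of the fit. Without the filter the fit holds many genes with few counts, and the size of its p-values is not read as a measure of that spread. DESeq2 1.42.0 and the other settings of the closing section were alternatives. Intervals and the limit of 3 counts for a 0 cover counting error only.

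All 7 members were described, of each pathway list the called gene that rose most and that fell most were named, and of likeness the 3 closest genes. Some genes that this rule names are not reported here. The members, lists, markers and tumor sets were chosen with earlier results of these data known, and the sets rest on such results.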

Additional observations from a re-analysis of the deposited data

Results flagged for a closer look

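Of 69 groups of animals tested for a value far from the rest, 4 held one, and chance alone gives about 1 in 20. They were the Gabra2 level of 248.2 CPM in Node D-like cells of vehicle-treated tumor 4, whose next value was 131.5 CPM, the Gabra2 level of 27.3 CPM over all cells of vismodegib-treated tumor 3, the Gabra5 level of 1.30 CPM over all cells of vehicle-treated tumor 4 and the Gabrb2 level of 2.05 CPM in the same tumor. Without vehicle-treated tumor 4 the Node D-like difference of Gabra2 between the treatments was 0.43 on the log2 scale (edgeR, adjusted p = 1.00). The stage change differed between groups for 2 members: for Gabra2 it was larger in vehicle-treated tumors than in WT by 2.36 (edgeR, adjusted p = 0.00017), and for Gabra3 larger under vismodegib than under vehicle by 1.93 (edgeR, adjusted p = 0.000159). The filter kept Gabra2 in its fit through its differentiating level, so that this filtered call is no support, though the difference was also called without the filter. For Gabra2, vehicle was below WT in proliferating cells without overlap, and the levels in differentiating cells overlapped.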

How the results depend on the processing

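Replicate numbers did not pair the animals (correlations of same-numbered deviations from -0.33 to 0.40). Under the replicate block 1 member was called in Node C-like cells in place of 0 (Gabra2, 1.17 on the log2 scale), the counts of members called elsewhere were as reported, and over all genes 11 were called in Node D-like cells in place of 3. With the tumor set as a term Gabra2 was the 1 member called in Node C-like cells (1.15, adjusted p = 0.0184), and 399, 653, 378 and 13 genes were called in Node A-like to Node D-like cells in place of 216, 308, 151 and 3.

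DESeq2 called 1 member in Node C-like cells and 2 pairs of a member and a tumor cell type in place of 5, and the difference of the Gabrd stage change between vismodegib and vehicle was -0.0531 in place of 0.0627. It was -0.137 with upper limits of 4 SD. At a resolution of 1.2, where 53.1% of tumor Node D-like and 35.5% of Node C-like cells lost their name and 56.1% of WT Node D-like cells became unipolar brush cell-like, 1 member was called in CGNP-like cells in place of 2, 1 in the stage comparison under vismodegib in place of 3, 0 in its difference from vehicle in place of 1, 1 in differentiating cells of vehicle against WT in place of 0, and 2 tumor pairs. There Gabra3 in CGNP-like cells was -0.369, the Gabra3 difference of stage changes between vehicle and WT 0.550 and the Gabrd difference between vismodegib and vehicle -1.49. Gabrd in vismodegib Node D-like cells was 36.0 in place of 69.9 CPM, and Gabrb1 in vismodegib astrocyte-like cells 141.9 in place of 105.0 CPM. The Node D-like means of WT, vehicle and vismodegib there were 22.7, 131.2 and 168.6 CPM for Gabra2 and 4.24, 50.04 and 36.0 CPM for Gabrd. With no filter on low counts, by which more members are tested, 5 were called in CGNP-like, 1 in Node A-like and 1 in Node C-like cells, 2 and 6 in the stage comparisons of WT and vismodegib, 2 in the difference between vismodegib and vehicle, 1 and 2 in proliferating and differentiating cells of vehicle against WT, where Gabra3 in proliferating cells was 0.0267, and 7 WT and 17 tumor pairs. Sums thinned to the smallest total gave 2971 and 2062 genes for vehicle against WT in place of 4834 and 3392, and no animal block 3952 in place of 7344 for the stage under vehicle. The cause of the changes under DESeq2, the block, the set and the limits was not tested.

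With cells thinned to 500 UMIs, which lowers every share, Gabra2 was found in 6.51% and 7.49% of Node D-like cells under vehicle and vismodegib (17.6% and 19.4% unthinned), Gabrd in 4.29% and 3.63% (8.43% and 9.95%), Gabra6 in 35.9% and 34.0% of neuron-like cells (63.7% and 64.3%), and Gabrb1 in 3.33% and 4.36% of astrocyte-like cells (16.3% and 21.3%).

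Leaving out 1 animal at a time, the members called ranged from 2 to 4 in CGNP-like cells (4 without any single one of the 5 vehicle-treated tumors or vismodegib-treated tumor 1), 0 to 1 in Node C-like cells (1 without vehicle-treated tumor 3 or 4), 0 to 2 in the WT stage comparison (2 without WT animal 5), 3 to 5 in that of vismodegib (5 without tumor 1), 1 to 2 in the difference between vismodegib and vehicle (2 without vehicle-treated tumor 1 or 4), 0 to 1 in differentiating cells of vehicle against WT (1 without WT animal 2 or 4), 0 to 2 WT pairs (2 without WT animal 2 or 5) and 3 to 5 tumor pairs (3 without vismodegib-treated tumor 5). Changes that took either sign were Gabra2 in Node D-like cells (-0.0788 to 0.427), Gabra3 over all cells (-0.116 to 0.334), Gabrd in the difference of stage changes between vehicle and WT (-0.420 to 2.31), and Gabra6 (-0.103 to 0.974) and Gabrd (-0.178 to 0.609) in that between vismodegib and vehicle. Gabra3 was called in the stage comparison under vehicle without vehicle-treated tumor 1 (0.518, adjusted p = 0.0424). All genes called ranged from 200 to 312 in Node B-like, 71 to 195 in Node C-like and 0 to 5 in Node D-like cells, and from 8199 to 15297 over the WT cell types. Over these settings the adjusted p of Gabra2 in CGNP-like cells ran from 1.77e-06 to 0.00867, and that of the Gabra2 difference between vehicle and WT from 8.96e-06 to 0.00219. Except for the setting without the filter, these fits used the same filter. The Gabra3 difference between vismodegib and vehicle lost its call at a resolution of 1.2 (1.02, adjusted p = 0.166). Depth limits Gabra5 and Gabrb2, which had at most 11 UMIs per class and group outside the granule lineage and neuron-like cells. The Gabrd call in microglia-like cells was lost under DESeq2 (-1.55) and at a resolution of 1.2 (-1.41).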

Other observations

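The 2 clusters of tumor cells that stayed unnamed held 1276 and 37 cells. Gabra2 stood there at 26.8, 43.8, 69.7, 53.7 and 63.3 CPM in vehicle-treated tumors and at 149.8, 152.7, 46.0, 56.3 and 34.1 CPM in vismodegib-treated tumors, ranges that overlapped. Gabra3 was at a mean of 30.7 and 26.7 CPM and Gabrd at 13.5 and 7.36 CPM under vehicle and vismodegib.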
